A study of Mus musculus with 4 samples.

Results

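Among the chromatin regions that differed between Sin3B+/+ and Sin3B-/- LT-HSCs, 38 of the 5332 peaks were assigned to a gene named as a splicing factor or RNA helicase. Members were chosen by gene name alone, as every peak whose named gene began with Ddx, Dhx, Srsf or Rbm followed by a digit, or with Hnrnp, Snrp, Sf3 or Prpf. The 38 peaks belonged to 31 of the 4376 genes named in the table. They comprised 17 Rbm, 7 Ddx, 7 Hnrnp, 3 Dhx and 2 Prpf peaks and 1 peak each of Srsf and Snrp, and 0 of Sf3. On the deposited scale every member peak was more accessible in Sin3B-/- LT-HSCs, as was 95.7% of the table, and the gains ran higher away from transcript starts. The 23 peaks at starts gained 0.50 to 0.87 log2 units (median 0.61) and the 15 elsewhere 0.64 to 2.87 (median 1.05), with 7 of the 15 inside the range of the starts. Over the whole table the medians stood in the same order, 0.66 and 0.84. The Sin3B+/+ mean level was over 200 at all 23 starts but at only 2 of the 15 others. Low peaks needed larger changes to enter the table, so position and level were not told apart. The largest gain lay in an intron of Ddx19a.

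ATAC-Seq, in which the Tn5 transposase cuts and tags DNA that is not packed in nucleosomes, was performed on LT-HSCs, the long-term hematopoietic stem cells of mouse bone marrow. Cells were sorted as L-S+K+Flk2-CD48-CD150+ from untreated C57BL/6 mice at homeostasis. The 2 Sin3B+/+ and 2 Sin3B-/- libraries each pooled the cells of 2 mice. In the mutant mice, floxed Sin3B was deleted by Vav1-iCre, which is active throughout the hematopoietic system from fetal life. The labels call the controls WT and the study names them both Sin3B+/+ and Sin3B F/F, so their floxed and Cre alleles are not settled here. The study's methods give both sexes in equal numbers as a general rule, and the age of the mice sorted for ATAC-Seq is not given in the sources used here.

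The spliceosome, built from small nuclear ribonucleoproteins and many accessory proteins, removes introns from newly made RNA. DEAD-box (Ddx) and DEAH-box (Dhx) helicases use ATP to remodel RNA and RNA-protein complexes in splicing, RNA export, translation and ribosome assembly. SR proteins and hnRNPs bind newly made RNA and bias the choice of splice sites, and the RBM proteins are a mixed group that share RNA-binding domains. Splicing factors are among the genes recurrently mutated in clonal disorders of blood stem cells. Sin3B is a scaffold of a histone deacetylase complex, and cells without it were compared with controls for accessibility. Because names chose the members, some are helicases of export, translation or ribosome assembly and not splicing factors.

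Sequences are shown first for the peaks with the largest gains and for 4 promoters at which the gain was smaller. The first set is the central 300 bases of the 3 member peaks with the largest gains, on the plus strand of GRCm38. They come from an intron of Ddx19a (chr8:110988125-110988424), an intron of Rbm17 (chr2:11596742-11597041) and a coding exon of Hnrnpul2 (chr19:8829682-8829981). Capitals mark exact matches, on either strand, to any of 12 short motifs. Cell cycle elements searched were CHR, the letters TTTGAA, and the E2F element GGCGGGAA. General promoter elements were GCCAAT for NFY, with GGGCGG for the SP and KLF proteins, then CCGGAAG for ETS proteins, GCGCATGC for NRF1, AAGATGGCG for YY1 and finally TGACGTCA for the CRE. Elements of hematopoietic and other factors were TGTGGTT for RUNX proteins, next AGATAAG for GATA proteins, and also TGANTCA for AP-1 besides CNAGGGGGC for CTCF.
Ddx19a intron: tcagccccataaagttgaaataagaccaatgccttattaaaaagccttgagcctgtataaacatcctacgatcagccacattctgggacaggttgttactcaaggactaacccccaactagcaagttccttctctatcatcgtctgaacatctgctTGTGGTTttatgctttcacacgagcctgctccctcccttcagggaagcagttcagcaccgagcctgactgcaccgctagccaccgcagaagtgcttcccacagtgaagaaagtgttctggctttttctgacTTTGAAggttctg
Rbm17 intron: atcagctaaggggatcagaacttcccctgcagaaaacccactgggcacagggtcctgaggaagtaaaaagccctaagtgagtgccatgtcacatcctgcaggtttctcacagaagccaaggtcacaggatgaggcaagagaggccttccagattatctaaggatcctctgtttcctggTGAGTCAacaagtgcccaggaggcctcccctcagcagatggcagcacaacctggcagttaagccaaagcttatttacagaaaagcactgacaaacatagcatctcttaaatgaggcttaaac
Hnrnpul2 coding exon: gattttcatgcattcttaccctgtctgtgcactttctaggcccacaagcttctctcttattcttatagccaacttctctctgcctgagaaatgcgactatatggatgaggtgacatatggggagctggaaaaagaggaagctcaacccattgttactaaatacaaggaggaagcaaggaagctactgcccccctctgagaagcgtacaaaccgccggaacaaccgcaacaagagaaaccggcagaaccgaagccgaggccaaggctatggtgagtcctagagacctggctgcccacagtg
The Ddx19a window held 1 match each to CHR and RUNX, the Rbm17 window 1 match to AP-1, and the Hnrnpul2 window none of the 12. Rbm17 also had no CpG dinucleotide in its window.

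The second set is from RefSeq (GRCm38.p6), 250 bases before to 50 after a gene's start, read in the direction of the gene. Hnrnpul1 (chr7:25754710-25755009, minus strand) held a very high level per peak, Hnrnpa2b1 (chr6:51469796-51470095, minus strand) had the smallest gain, and Dhx29 (chr13:112927430-112927729, plus strand) and Srsf11 (chr3:158036557-158036856, minus strand) share their peaks with a gene on the opposite strand.
Hnrnpul1 promoter: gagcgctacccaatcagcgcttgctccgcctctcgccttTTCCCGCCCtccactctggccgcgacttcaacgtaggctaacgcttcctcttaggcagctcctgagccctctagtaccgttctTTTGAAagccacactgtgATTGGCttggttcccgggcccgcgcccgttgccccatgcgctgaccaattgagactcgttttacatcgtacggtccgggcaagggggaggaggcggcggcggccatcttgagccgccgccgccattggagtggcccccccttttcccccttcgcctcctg
Hnrnpa2b1 promoter: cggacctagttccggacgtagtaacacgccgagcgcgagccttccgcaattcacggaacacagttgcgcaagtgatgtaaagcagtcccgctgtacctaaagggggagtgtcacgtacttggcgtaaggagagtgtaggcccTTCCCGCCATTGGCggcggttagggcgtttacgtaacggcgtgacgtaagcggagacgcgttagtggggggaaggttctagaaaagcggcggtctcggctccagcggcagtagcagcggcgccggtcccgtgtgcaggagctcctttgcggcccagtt
Dhx29 promoter: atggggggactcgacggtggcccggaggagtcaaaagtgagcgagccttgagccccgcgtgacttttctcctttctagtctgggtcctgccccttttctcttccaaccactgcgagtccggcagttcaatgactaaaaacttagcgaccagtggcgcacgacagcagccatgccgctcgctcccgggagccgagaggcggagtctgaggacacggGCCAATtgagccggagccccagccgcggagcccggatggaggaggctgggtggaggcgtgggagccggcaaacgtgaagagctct
Srsf11 promoter: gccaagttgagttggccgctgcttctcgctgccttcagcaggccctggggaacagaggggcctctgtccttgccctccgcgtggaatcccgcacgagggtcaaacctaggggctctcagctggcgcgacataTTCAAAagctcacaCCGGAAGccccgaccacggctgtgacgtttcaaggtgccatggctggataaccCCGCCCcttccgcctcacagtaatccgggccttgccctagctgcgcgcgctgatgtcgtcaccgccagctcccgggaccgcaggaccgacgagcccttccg
In Hnrnpa2b1 the matches to E2F and NFY stood side by side, and in Hnrnpul1 the match to E2F overlapped one to SP and KLF. Hnrnpul1 also matched CHR and NFY, Dhx29 matched NFY alone, and Srsf11 matched CHR, ETS, and SP and KLF. A match is a description of letters and does not show that a factor is bound.

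The levels below are the authors' normalised signal per peak, called scaled levels here. The log2 fold change is the difference in mean log2(level + 1), Sin3B-/- minus Sin3B+/+, fitted with limma across all 5332 peaks. The table held only peaks that the authors had already called differential, so a call among its rows was set by that selection. By limma, 38 of 38 members had an adjusted p under 0.05 and were higher in Sin3B-/-, beside a background of 95.7% of the table. Both Sin3B-/- libraries exceeded both Sin3B+/+ libraries at 38 of 38 members, and again the background was 95.7%. The member count was thus near the background, and nothing particular to these genes is read from it. With 2 libraries against 2, an exact permutation test of a single peak cannot give a two-sided p below 0.33.

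The whole table moved upwards, by a median of 0.76 log2 units, beside 0.71 for the members. The median log2 level over the table was 7.75 and 7.50 in the Sin3B+/+ libraries, against 8.32 and 8.43 in the Sin3B-/- libraries. The amount of transposomes had been scaled to the cells obtained, and its part in this shift was not tested. Within a library the scaled levels rose in equal steps, of 0.228 and 0.343 in the Sin3B+/+ libraries (replicates 1 and 2). In the Sin3B-/- libraries the steps were larger, 0.625 and 1. If a step is 1 read, the scaling raised Sin3B-/- levels relative to Sin3B+/+. Whether a step is 1 read was not settled, and the part of the scaling in this shift was not tested. A higher level in pooled cells cannot tell more open cells from more opening per cell. After each library was centred on its own median, 3 members were called higher, beside a background of 7.84%, and 0 lower, beside 257 of the 5332 peaks. These 3 were the Ddx19a intron, the Rbm17 intron and the Hnrnpul2 exon. Of the 38 members, 22 then had a difference below 0 and 16 above it, so relative to the table the other members had no called direction. At an unadjusted p under 0.05 the centred limma fit had 6 members higher and 4 lower. The share of the table at that threshold was not computed, so nothing is read from these counts.

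The count also depended on which libraries were fitted, more than the size of the change did. The members' median log2 fold change was 0.71 with all 4 libraries, 0.76 without Sin3B-/- replicate 1 and 0.60 without Sin3B-/- replicate 2. Without Sin3B+/+ replicate 2, 32 members were called higher (background 91.8%). Without Sin3B-/- replicate 2, 8 members were called higher (background 33.0%), and without Sin3B-/- replicate 1, 20 were (background 62.2%). All 8 were away from starts, so no start peak kept its call in that limma fit. In these fits the lone library is assumed to vary like the other genotype. The 8 were the same 8 peaks whose log2 fold change was at least 1, a size reached by 22.4% of the table. Sin3B-/- replicate 2 was the higher of its pair at 35 members, and Sin3B+/+ replicate 1 at 33. 6 of 11 LT-HSC marker genes (Procr, Slamf1, Gata2, Fgd5, Hoxb5 and Meis1) and 0 of 10 lineage marker genes had a peak in the table. Only differential peaks are in it, so these counts do not measure the purity of the sort. No peak in the table used here was named for Sin3b, so its deletion was not checked here.

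**Figure D1:**
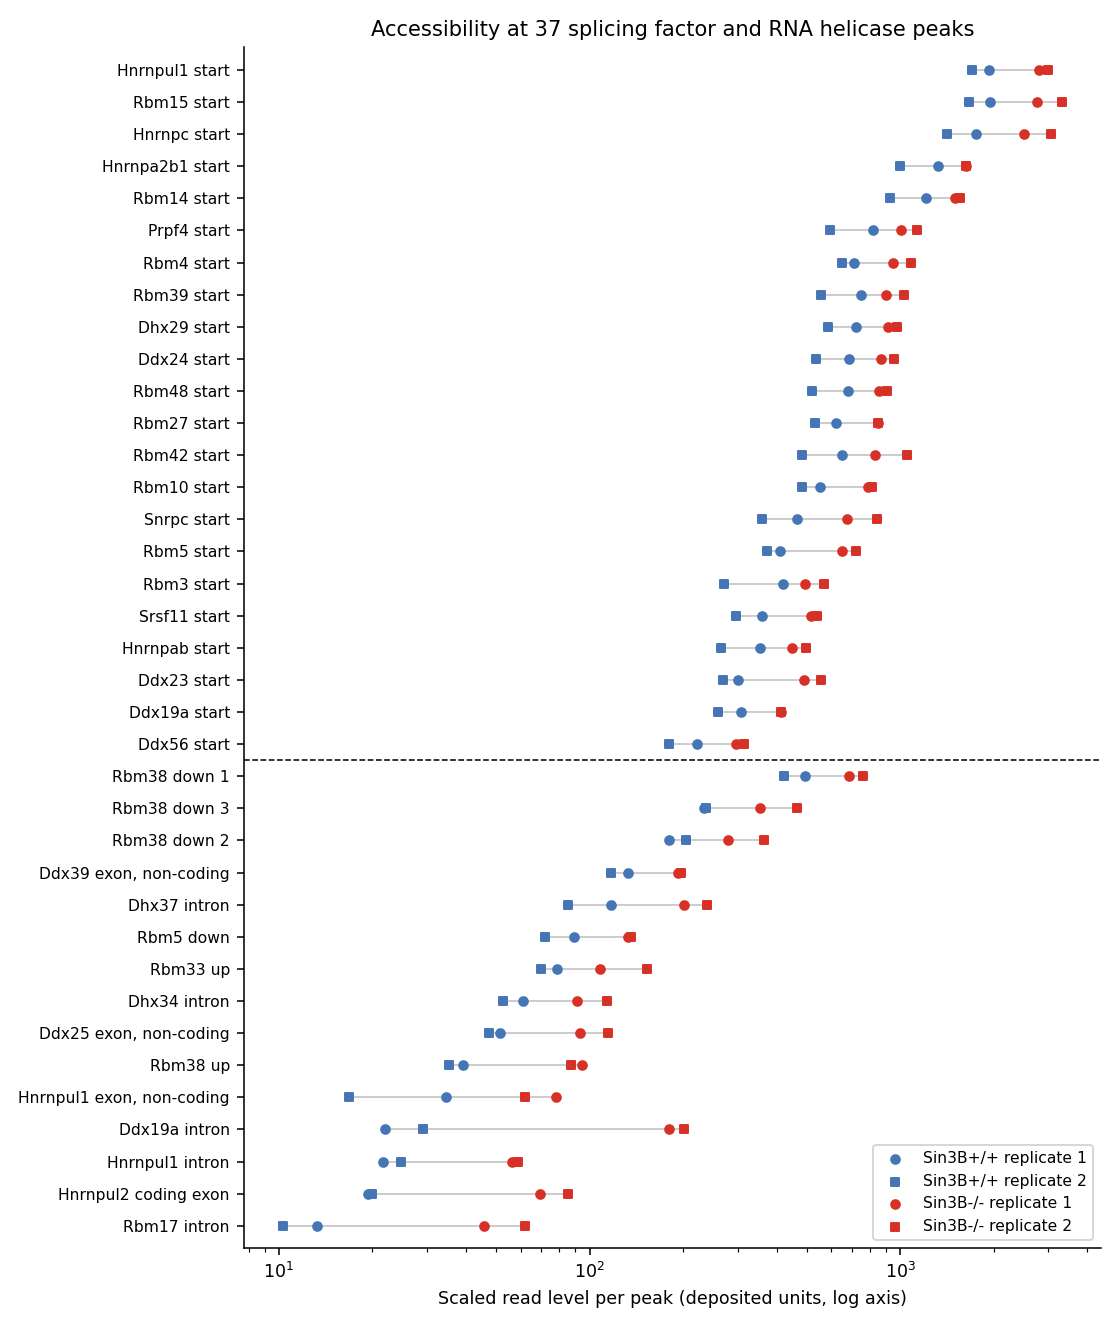
Scaled read level (horizontal log axis) at 37 of the 38 member peaks in the 4 libraries, with Sin3B+/+ in blue and Sin3B-/- in red, circles for replicate 1 and squares for replicate 2. Peaks above the dashed line overlap a transcript start of their gene and those below do not; in every line both red points lie to the right of both blue points, and the gap is widest for the Ddx19a intron.

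Ddx19a encodes a DEAD-box helicase of messenger RNA export. Its intronic peak (chr8:110988060-110988490), 9525 bp from the nearest transcript start of the gene, had levels of 21.9 and 29.1 in Sin3B+/+ and 181 and 202 in Sin3B-/-. The means were 25.5 ± 5.11 and 191 ± 15.1 (SD, n = 2 libraries), a ratio of 7.5. The pairs lay far apart, and the spread within each was small beside the gap. The log2 fold change was 2.87 (SE 0.26, limma adjusted p = 2.5e-26), rank 13 of the table by absolute size, and 2.12 after centring (adjusted p = 4.7e-21).

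The start of the same gene behaved otherwise. The peak over the Ddx19a start (chr8:110997500-110998590) had levels of 307 and 259 in Sin3B+/+ and 412 and 414 in Sin3B-/-, a log2 fold change of 0.55 (SE 0.21, limma adjusted p = 0.0082). Per peak it held more signal than the intron in all 4 libraries, but it is 1091 bp wide and the intronic peak 431 bp. Per kb of peak, the mean level was 259 at the start and 59.2 in the intron in Sin3B+/+, and 379 and 444 in Sin3B-/-. The order of these peaks per kb thus turned between genotypes. After centring it was -0.20 (adjusted p = 0.31).

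Rbm17 encodes a splicing factor that acts at the choice of the 3′ splice site. Its intronic peak (chr2:11596701-11597084), 6370 bp from a start, had the lowest mean level of any member in both genotypes, with 13.2 and 10.3 in Sin3B+/+ and 45.6 and 62.0 in Sin3B-/-. The libraries did not overlap, and the log2 fold change was 2.10 (SE 0.35, limma adjusted p = 4.4e-08), or 1.34 after centring (adjusted p = 0.0016). Each library's values rose in equal steps, and the lowest member value was 30 steps. If a step is 1 read, counting error weighs more here than at the starts.

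Hnrnpul2 and Hnrnpul1 encode hnRNP U-like proteins, which bind RNA and also take part in the response to DNA breaks. The Hnrnpul2 peak (chr19:8829602-8830063) lay over a coding exon 9822 bp from a start, where the annotation also has the read-through gene AC129217.1. Its levels were 19.4 and 19.9 in Sin3B+/+ against 69.4 and 85.0 in Sin3B-/-. The Sin3B+/+ pair was nearly equal, and the log2 fold change was 1.91 (SE 0.30, limma adjusted p = 7.3e-09), or 1.16 after centring (adjusted p = 0.00052).

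Hnrnpul1 carried 3 peaks. The non-coding part of an exon (chr7:25721032-25721324) had levels of 34.5 and 16.8 against 78.1 and 62.0, and an intron (chr7:25729291-25729807) had 21.7 and 24.7 against 56.2 and 59.0. Their log2 fold changes were 1.49 (SE 0.30) and 1.28 (SE 0.31), with limma adjusted p of 5e-06 and 0.00013. The exon peak was the more variable, since its Sin3B+/+ libraries differed from each other by more than those of the intron, and without Sin3B+/+ replicate 2 its log2 fold change was 0.99 (adjusted p = 0.0038). The start peak (chr7:25754530-25755784) had 1935 and 1701 against 2791 and 2989, a log2 fold change of 0.67 (SE 0.20, limma adjusted p = 0.0015). Its Sin3B+/+ mean per peak was the highest of all members.

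**Figure D2:**
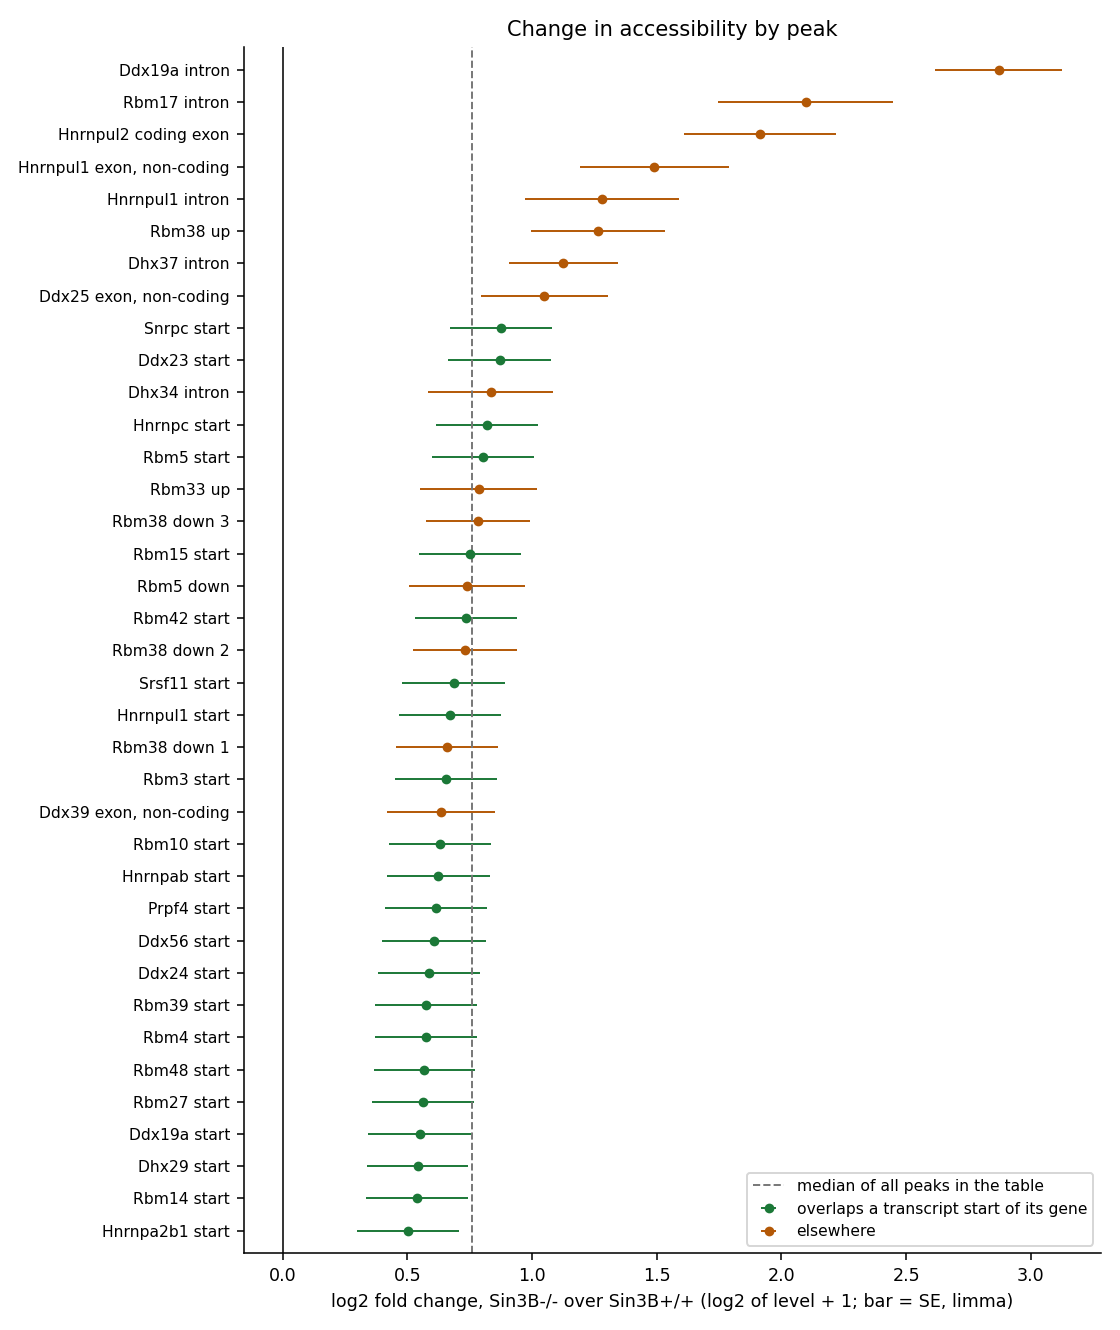
Log2 fold change (Sin3B-/- over Sin3B+/+, horizontal axis) of 37 member peaks with their limma SE, green for peaks over a transcript start and orange for the others, ordered by size. The dashed line is the median of all peaks, 0.76; the top 8 peaks are all orange, and 18 of the 22 green points lie at or below the line.

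Snrpc encodes the U1-C protein of the U1 particle, which recognises the 5′ splice site. Its peak (chr17:27839605-27840432) had levels of 465 and 360 in Sin3B+/+ and 672 and 839 in Sin3B-/-, and the log2 fold change was 0.87 (SE 0.20, limma adjusted p = 8.6e-05). Each pair differed within itself, but the pairs did not overlap.

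Ddx23 encodes the helicase of the U5 particle that releases U1 from the 5′ splice site. Its start (chr15:98662194-98663199) had levels of 301 and 269 in Sin3B+/+ and 491 and 555 in Sin3B-/-, a log2 fold change of 0.87 (SE 0.21, limma adjusted p = 9.8e-05). Snrpc and Ddx23 had the largest gains of any member start, and the difference between them was not tested.

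Srsf11 encodes an SR-related protein, and its start (chr3:158036229-158037049) lies with that of Lrrc40. Its levels were 360 and 297 against 515 and 538, a log2 fold change of 0.69 (SE 0.21, limma adjusted p = 0.0014). Its gain stood in the middle of the members, at rank 20 of 38.

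Hnrnpa2b1, an abundant hnRNP, had the smallest gain of all. Its start (chr6:51468848-51470656), the widest member peak at 1809 bp, reaches over the start of Cbx3 on the opposite strand. The levels were 1327 and 995 in Sin3B+/+ against 1629 and 1627 in Sin3B-/-, a log2 fold change of 0.50 (SE 0.20, limma adjusted p = 0.014). Without Sin3B+/+ replicate 2 the log2 fold change was 0.29, and without Sin3B-/- replicate 1 or 2 it stayed at 0.50. The call was lost in each of these fits. The Sin3B-/- libraries were nearly identical, and the Sin3B+/+ libraries were apart by more than the distance from the upper one to Sin3B-/-.

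Among the RBM genes, Rbm38 had 4 peaks. It encodes an RNA-binding protein induced by p53 that regulates the stability of target messenger RNAs. The upstream peak (chr2:173018614-173018926), 1728 bp before the start, had 39.0 and 35.3 in Sin3B+/+ and 94.4 and 87.0 in Sin3B-/-, a log2 fold change of 1.27 (SE 0.27, limma adjusted p = 1.6e-05). Both pairs were tight.

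The other 3 lay in a row beyond the end of the gene, at chr2:173034987-173035588, chr2:173036551-173037042 and chr2:173038082-173038592. In that order the levels in Sin3B+/+ were 494 and 422, 180 and 204, and 234 and 237. In Sin3B-/- they were 685 and 761, 280 and 364, and 354 and 466. Their log2 fold changes were 0.66, 0.73 and 0.78 (SE 0.21 each, limma adjusted p = 0.0018, 0.00087 and 0.0004). All were smaller than that of the upstream peak, and no difference between peaks was tested. The first of the 3 had the highest level of any member peak away from a start, 761 per kb in Sin3B+/+.

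Rbm5 encodes a splicing regulator known as a tumour suppressor. Its start (chr9:107770626-107771333) had levels of 410 and 374 against 648 and 723, a log2 fold change of 0.80 (SE 0.20, limma adjusted p = 0.00027). Its other peak (chr9:107738028-107738411), beyond the gene and 32768 bp from a start, had 89.4 and 72.0 against 133 and 136, with 0.74 (SE 0.23, adjusted p = 0.0021). The values of the start and the distal peak lay closer here than at Ddx19a and Hnrnpul1. No difference between peaks was tested.

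Rbm15 and Rbm14 had strong starts. Rbm15, a protein of the RNA methylation machinery that is required in blood stem cells, had levels of 1939 and 1663 against 2760 and 3319 at its start (chr3:107332935-107334144). The log2 fold change was 0.75 (SE 0.20, limma adjusted p = 0.00053), beside a table median of 0.76. Rbm14, a coactivator found in nuclear paraspeckles, had 1206 and 924 against 1505 and 1561 (chr19:4810848-4812164), with 0.54 (SE 0.20, adjusted p = 0.0088). For Rbm14 the change was 0.35 without Sin3B+/+ replicate 2 (adjusted p = 0.085), and the call was lost as well without Sin3B-/- replicate 1 (adjusted p = 0.12) or 2 (adjusted p = 0.17). Rbm15 had the highest Sin3B-/- mean per peak of the members, 3039. The annotation also places a read-through gene, Gm21992, over the Rbm14 and Rbm4 starts.

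Helicases outside splicing made up the rest of the peaks described singly. Dhx37 acts in assembly of the small ribosomal subunit, and its intronic peak (chr5:125418914-125419544) had levels of 117 and 85.4 against 202 and 238, a log2 fold change of 1.12 (SE 0.22, limma adjusted p = 2.9e-06). Ddx25 encodes a helicase known from germ cells, and its peak in the non-coding part of an exon (chr9:35541472-35541835) had 51.3 and 47.6 against 93.1 and 115, with 1.05 (SE 0.25, adjusted p = 0.00013). Both were away from a start and both passed 1 log2 unit.

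Dhx29 acts in translation initiation. Its start peak (chr13:112927279-112927996) had levels of 719 and 584 in Sin3B+/+ and 912 and 976 in Sin3B-/-, a log2 fold change of 0.54 (SE 0.20, limma adjusted p = 0.0085), and it holds the start of Mtrex, a helicase of the nuclear exosome. At the start of Ddx24 (chr12:103425478-103426406) the levels were 683 and 535 against 866 and 956, with 0.59 (SE 0.20, adjusted p = 0.0046). Both starts gained less than the table's median.

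A further 14 members were Ddx39, Ddx56, Dhx34, Hnrnpab, Hnrnpc, Prpf4, Rbm3, Rbm4, Rbm10, Rbm27, Rbm33, Rbm39, Rbm42 and Rbm48, and their log2 fold changes lay between 0.56 (Rbm27) and 0.83 (Dhx34). Hnrnpc, which coats newly made RNA at uridine tracts, is named after its values were seen because its start had the highest level per kb of all members, 1812 in Sin3B+/+ and 3199 in Sin3B-/-. Its levels per peak were 1748 and 1409 in Sin3B+/+ against 2511 and 3061 in Sin3B-/-. The Ddx39 peak also overlaps the annotated span of Adgre5, so the assignment to Ddx39 is the table's and not the only one possible. Sf3b1, Srsf2, Prpf8 and Ddx41, known from myeloid neoplasia, were not among the members and were not analysed here.

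Start peaks and other peaks differed in level as well as in gain. The median Sin3B+/+ level was 599 over the 23 start peaks and 56.9 over the 15 others, and the median widths were 1006 and 492 bp. Per kb of peak the medians were 601 and 136, beside 562 and 202 for the same classes of the table. The median log2 fold changes were 0.61 and 1.05. The table showed the same order, with 0.66 over its 1778 start peaks and 0.84 over its 3554 other peaks. All 8 member gains of at least 1 log2 unit were away from starts. In the table, 92 of 1778 start peaks and 1101 of 3554 other peaks reached that size. Of the 15, 5 were intronic, 4 lay over exons and 6 were outside the gene, all 6 at Rbm genes.

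**Figure D3:**
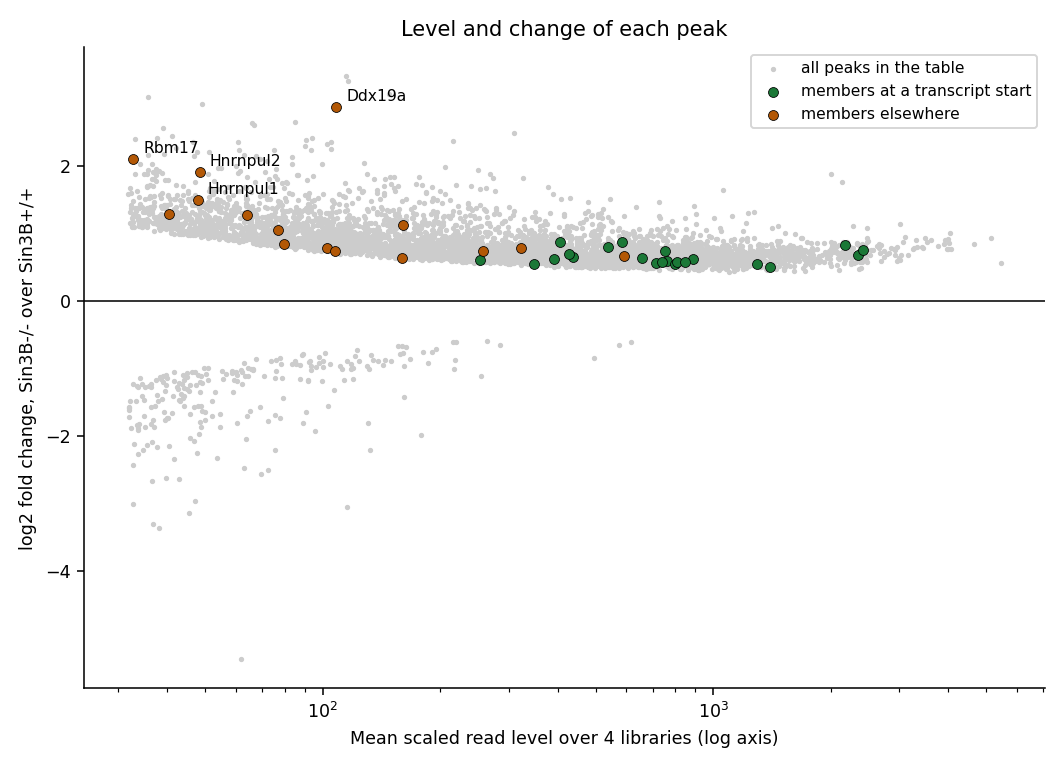
Log2 fold change (Sin3B-/- over Sin3B+/+) against the mean scaled level over the 4 libraries (log axis) for all 5332 peaks in grey, 37 members in colour, those at transcript starts in green and those elsewhere in orange. The empty band around 0 shows that the table holds only peaks already called; low peaks needed larger changes to enter it, the green points lie low and to the right, and Ddx19a, Rbm17, Hnrnpul2 and Hnrnpul1 are marked.

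The gain fell with the level. Spearman's rho between log2 fold change and mean level was -0.68 across the 38 members and -0.52 across the 5332 peaks. It was -0.70 within the 15 other peaks and -0.19 within the 23 starts. All points share the same 4 libraries, and the lower edge of the selected table rises at low level, so these are descriptions. Together the members held a steady share of the summed signal of the table, between 0.958% and 1% in the 4 libraries.

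A start peak was one that overlapped an annotated transcript start of its own gene in GENCODE M21. By this definition 60.5% of members (95% Wilson interval 44.7% to 74.4%) and 33.3% of the table were start peaks. The interval treats the peaks as independent, which peaks of 1 gene are not. With the narrower definition planned for this comparison, a peak centre from 1000 bp before to 100 bp after the start of the gene, the shares were 34.2% and 20.9%. Start peaks made up 62.8% of the 78 peaks of Zfp genes, a family of zinc finger proteins, and 41.9% of the 31 peaks of ribosomal protein genes.

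Several members shared their start region with a neighbour. In 10 of the 23 start peaks (43.5%) the start of a gene on the opposite strand fell in the same peak, beside 25.4% of the table's start peaks. For 7 of them (30.4%, beside 19.6%) the neighbour was protein-coding, among them Cbx3 with Hnrnpa2b1, Mtrex with Dhx29, Cdc26 with Prpf4, Ndufb11 with Rbm10 and Lrrc40 with Srsf11. Other neighbours were Rbm3os, Gm26610 and AC125110.1. At such peaks the level cannot be assigned to either gene.

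Base composition followed position. In the 300 bases at the peak centre, the ratio of observed to expected CpG had a median of 0.898 over the member starts and 0.286 over the others, beside 0.743 and 0.256 for the same classes of the table. The ratio was above 0.6 in 22 of 23 member starts and in 0 of 15 others. The exception was Rbm10, named after its values were seen, at 0.389 in this window. Over the 19 RefSeq promoters in member start peaks, that of Rbm10 among them, the ratio was at least 0.661. Median GC content was 60.7% and 56.3% for the members, beside 60.8% and 51.7% for the table.

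**Figure D4:**
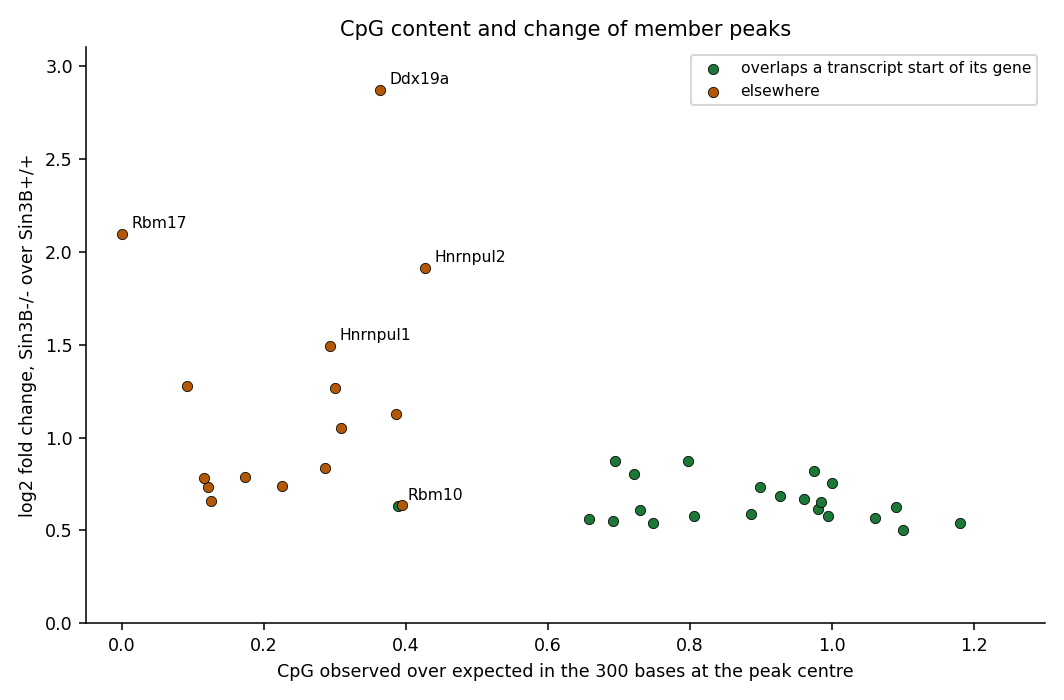
Log2 fold change (Sin3B-/- over Sin3B+/+, vertical axis) against the observed over expected CpG ratio of the central 300 bases (horizontal axis), 1 point for each of 37 member peaks, green over a transcript start and orange elsewhere. The orange points end at 0.427 and carry every gain above 1; the green points run from 0.389 (Rbm10) to 1.18 and stay below 0.9 on the vertical axis.

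RefSeq promoters were found for 25 of the 31 member genes, and 19 of the 23 start peaks held such a start. Among these 19 promoters, NFY letters occurred in 9 (47.4%), beside 33.2% of the 1303 RefSeq promoters in all start peaks and 14.7% of the 32851 in RefSeq. SP and KLF letters occurred in 47.4%, beside 64.4% and 35.7%. The E2F letters occurred in 2, Hnrnpul1 and Hnrnpa2b1 (10.5%, beside 5.37% and 2.19%), and CHR letters in 3 (15.8%, beside 11.5% and 17.9%). ETS letters were found in 15.8%, beside 21.9% and 8.86%. CRE, GATA and AP-1 letters had 1 promoter each, and the other motifs had 0.

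At the 15 peaks away from starts no motif occurred in more than 3 windows. CHR letters occurred in 3 (20%, beside 15.6% of the table's other windows). NFY letters and SP and KLF letters occurred in 2 each (13.3%, beside 11% and 16.2%). RUNX and AP-1 letters each occurred in 2 of the 15 windows (13.3%), beside 15.7% and 12.4% of the 3554 other windows of the table. GATA letters occurred in 1 (6.67%, beside 12.5%). CTCF letters occurred in 2 (13.3%, beside 2.36%). These counts are too small to set the members apart from the table.

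Other genes of RNA splicing and processing were read from a separate list of 136. Of these, 36 genes had 43 peaks in the table, 42 called higher in Sin3B-/- by limma and 1 lower. Their median log2 fold change was 0.73, close to 0.71 for the members and 0.76 for the table. In their 20 start peaks the gains ran from 0.54 to 0.93, much as in the member starts. After centring, 2 of the 43 were called higher and 1 lower, beside 7.84% and 257 of 5332 in the table.

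The 1 lower peak, named after its values were seen, lay in an intron of Msi2, an RNA-binding protein known for its role in blood stem cells. Its levels were 149 and 124 in Sin3B+/+ against 56.9 and 87.0 in Sin3B-/-, and the log2 fold change was -0.94 (SE 0.24, limma adjusted p = 0.00021). Likewise named after their values were seen, the 2 called higher after centring were an intronic peak of Elavl1 (2.45 on the deposited scale) and a peak downstream of Ppil1 (1.49). U2af1, Zrsr2 and Luc7l2 were on the list but had no row and were not analysed here.

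Gains were also read in 2 other gene families named by the same kind of rule. The 31 ribosomal protein peaks had a median log2 fold change of 0.73 and 31 were called higher. The 78 Zfp peaks had a median of 0.69, with 77 called higher and 1 lower. Both counts were near the 95.7% of the table called higher. A gain of at least 1 log2 unit was seen at 8 of 38 members, 6 of 31 ribosomal protein peaks and 9 of 78 Zfp peaks, beside 22.4% of the table. By family, the medians were 0.82 for Hnrnp, 0.83 for Dhx, 0.73 for Rbm and 0.64 for Ddx, and no difference between families was tested.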

How the data were processed

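ATAC-Seq was measured in 2 Sin3B+/+ and 2 Sin3B-/- libraries, each pooled from 2 mice. The authors aligned reads with Bowtie2, removed duplicates, called peaks with MACS2, and normalised and tested them with DiffBind and DESeq2 (versions not given in the sources used here). The deposited level per library is a normalised signal, and each library's values lay on a ladder of equal steps. The authors deposited only peaks with an adjusted p under 0.05, and the table used here is shorter than the study's own list, so a gene without a row is only not analysed here. Their own fold, level, p-value and FDR columns were not used. Total depth is unknown here. The deposited distance to a gene was read but recomputed from GENCODE M21. The submitters' notes name mm9, but 5330 of 5332 gene identifiers were in GENCODE M21 and 96.6% of these had the same start and end, so GRCm38 was used.

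limma 3.58.1 (R 4.3.3; lmFit, eBayes with trend) was fitted to log2(level + 1) of all 5332 peaks, with Benjamini-Hochberg adjustment over all of them and a threshold of 0.05. The pseudocount understates changes of low peaks. The fit was tested on simulated data. A count test planned for recovered reads was not run, because the deposited signal could not be accepted as read counts. Levels, windows and motifs were handled in Python 3.11.15 with pandas 2.3.3. Members and gene lists were chosen with earlier results of these data known. Peaks named singly were the 10 largest changes, any member lower in Sin3B-/-, all peaks of genes with at least 2, the highest level per family, the 3 smallest changes, members called after centring, and Sf3b1, Srsf2, Prpf8, Ddx41, U2af1, Zrsr2 and Luc7l2 where present. Alternatives were centring, pseudocounts of 0.5 and 8, a mean level of at least 50, other thresholds, other start definitions, 1 peak per gene, a replicate block and leaving out each library. The p-values rest on the spread between these pools, with each peak's variance moved by limma towards a trend with level over all peaks. The SE thus followed level more than a peak's own pairs. It was 0.298 at the Hnrnpul1 exon peak and 0.309 at its intron peak, although the exon pair in Sin3B+/+ lay further apart. Levels are per peak unless given per kb of peak. Protein sequences were not used here, and 1 member peak is counted but not reported singly.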

Additional observations from a re-analysis of the deposited data

How the results depend on the processing

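On the deposited scale 38 members were called higher and 0 lower, beside 95.7% of the table higher and 229 of its 5332 peaks lower. Under every alternative run 0 members were called lower, beside 257 peaks of the table after centring. With the libraries centred on their medians 3 members were called higher (7.84% of the table), and the members' median log2 fold change went from 0.71 to -0.044. The reversed values of single peaks under centring were -0.20 (Ddx19a start), -0.16 (Ddx24), -0.21 (Dhx29), -0.25 (Hnrnpa2b1), -0.082 (Hnrnpul1 start), -0.21 (Rbm14), -0.093 and -0.021 (Rbm38, the first and second downstream), -0.014 (Rbm5 downstream) and -0.067 (Srsf11), each with a limma adjusted p of at least 0.072. Leaving out 1 library at a time gave medians of 0.56 to 0.83 for the members and 0.63 to 0.89 for the table. A fold threshold of 1 log2 unit left 8 members (22.4% of the table). Pseudocounts of 0.5 and 8, an adjusted p under 0.01 (36 calls) and a mean level of at least 50 (34 of 34 tested) changed little. At that mean level 97.5% of the table was called higher, and the table's share under 0.01 was not computed.

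With a replicate block 25 members were called (71.9% of the table), and the 13 lost were all start peaks. Same-numbered libraries came from different mice, and no pairing is stated in the sources used here. Their deviations correlated at -0.101 over peaks. With 2 libraries per genotype this cannot decide whether same-numbered libraries were prepared together. The crossed pairing, added after seeing the data, called 38 members higher, beside 95.7% of the table.

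The share of members at a gene start was 34.2% by the planned definition, 57.9% where the peak overlapped the gene's start, 63.2% within 2500 bp, 63.2% for the start of any gene, and 60.5% for any transcript start of the gene, the definition added after seeing the data. Of 226 values for single named peaks, 175 kept direction and call, 41 lost the call and 10 reversed. The 2 edgeR fits and the DESeq2 fit planned for recovered reads were not run. The 2 libraries per genotype and a table of called peaks only limit every comparison.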
